A study of Mus musculus with 2 samples.

Results

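The immediate early response genes *Fos*, *Fosb*, *Jun*, *Junb*, *Egr1*, *Ier2*, *Atf3* and *Dusp1* were compared between *Plzf* lu/lu and wild type embryos, in the brain. They were selected by gene name, and all 8 were found among the 37074 gene names of the array, with 12 of its 56605 gene probes. RNA came from the forebrain and midbrain at E10.5, a stage when the neural tube is mostly dividing neuroepithelium. The wild type brain (strain label C57BL/6) was labeled with Cy3 and the luxoid brain (strain label luxoid) with Cy5 on each of 2 Agilent arrays, so that each array compared 1 sample of each genotype. Luxoid is a spontaneous mutation that truncates Plzf, a zinc finger transcription factor, and the mutant mice are written lu/lu here. The number of embryos behind an array was not given in the sources used here. The dyes were not exchanged between the arrays, and a dye effect on a probe cannot be told apart from genotype. The strain background of the luxoid mice was not given in the sources used here, so in every ratio a strain difference cannot be told apart from genotype either.

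Immediate early genes are switched on within minutes of a growth factor, a depolarization or a stress, without new protein synthesis. Kinases of the MAP kinase cascade act on factors already bound at their promoters, such as serum response factor and CREB, and the mRNAs are short-lived. Fos and Jun proteins dimerize to form AP-1, a transcription factor that acts on later response genes, and in nervous tissue *Fos* and *Egr1* are widely used to mark recently active cells. Because the same genes respond to handling of a tissue, their level can also depend on how a sample was collected.

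All values below are given for array 1 first and array 2 second, and every ratio is that of lu/lu to wild type on the log2 scale unless a fold is named. The signal is the brightness of a spot after the scanner software had subtracted background and balanced the dyes. *Zbtb16*, the gene that encodes Plzf, had a signal of 433 and 546 in wild type and of 172 and 211 in lu/lu. Its ratio was -1.33 and -1.37, in the direction of the genotype labels. With a lu/lu signal under 200 on array 1, it did not pass the stricter filter given below and was left out of the main fit. Over the 3 other settings that tested it, the adjusted p from limma lay between 0.0443 and 0.506, and 1 was under 0.05. That setting asked for 1 bright channel per array, which on array 1 was the wild type channel, where the gene is high. In every channel 23283 genes were well above background by the scanner software. The stricter signal filter, modeled on that of the study, asked for a signal above 200 and a signal-to-noise ratio of 5 or more in each of the 4 channels, and 10599 genes passed it. All 12 neuroepithelial and all 14 neuronal marker genes examined were well above background in each channel, as was each of the marker genes found on the array for other cell types. The tissue was taken whole, and fewer cells of a type and less RNA per cell cannot be told apart.

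Probes of *Junb* and *Dusp1*, the members with the highest ratios, are shown by the bases at their 5′ end, because the same gene gave different readings at different probes. All 4 lie on the minus strand, at chr8:87500843-87500902, chr8:87501881-87501940, chr8:87496635-87496694 and chr17:26642624-26642683 in build mm9, in the order printed.
Junb, transcript position 1745: ttcgtgtctaaagtctattttaagatgtgt
Junb, transcript position 707: agggctttgcggacggttttgtcaaagccc
Junb, clone AK044253: caatcactccaccaactaagccaaattccc
Dusp1, transcript position 1794: ccagtgtaggtttgtagctttcagttatcg
Of the *Junb* probes, the one at position 1745 alone gave a signal above background, and the clone probe lies 4.149 kb away from it. Positions count from the start of the transcript named in the array files. *Ier2* lies near *Junb* on chromosome 8, with 316 kb between their brightest probes.

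The members fell into a bright and a dim set. *Jun*, *Junb*, *Ier2* and *Dusp1* passed the signal filter. *Fos*, *Fosb*, *Egr1* and *Atf3* were well above background in each channel at their brightest probe and stayed below the signal minimum in each of them. The levels of different genes cannot be ranked from these values, since probes differ in how well they bind.

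**Figure D1:**
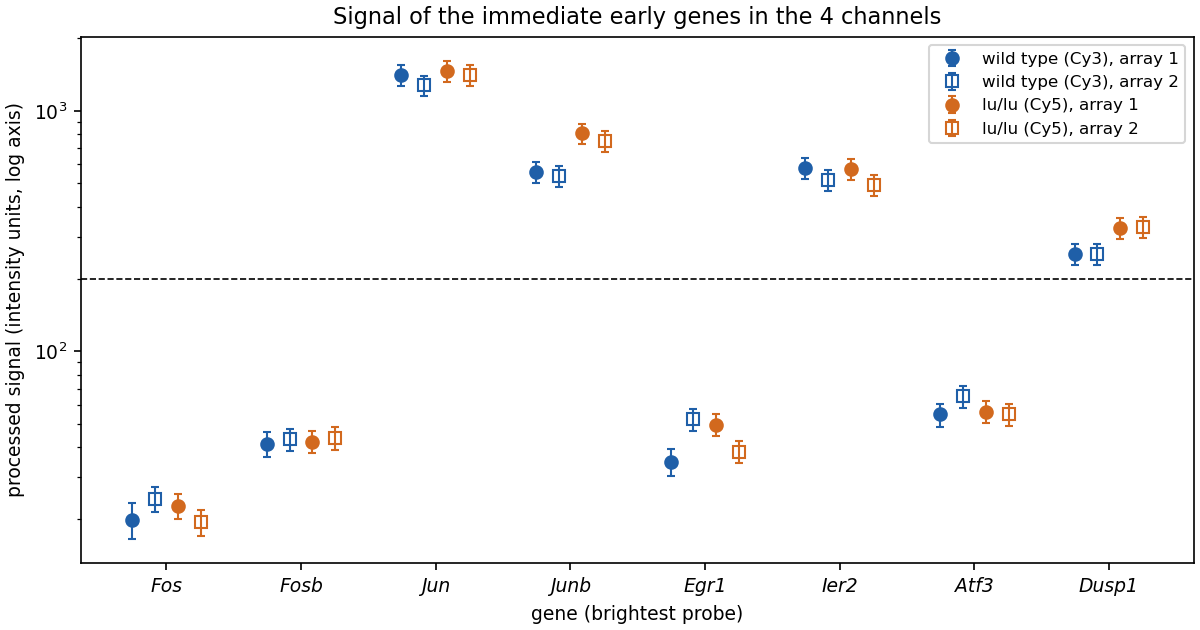
Processed signal (log axis) of the brightest probe of each member in the 4 channels, with the error that the scanner software gave each signal as bars, and the signal minimum of 200 as a dashed line. The lu/lu points of *Junb* and *Dusp1* lie above both wild type points, and the 4 points of *Egr1* cross over between the arrays.

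*Junb* encodes a Jun protein that often restrains growth. Its signal was 555 and 535 in the wild type samples, and 805 and 750 in the lu/lu samples. Both lu/lu samples were higher than both wild type samples. How many of all genes were separated in this way was not counted, here or for the genes below, so the separation is a description only. The ratio was 0.54 and 0.49, a mean of 0.51 (SD 0.04, n = 2 arrays), or 1.45-fold and 1.40-fold. The adjusted p of *Junb* from limma was 0.0509 (unadjusted p = 0.000632). It was the 1 member beyond 1.3-fold on both arrays, the limit used by the study. The list of changed genes that the study published does not include *Junb* or any other member. Of all genes that passed the filter here, 2.59% were higher and 0.736% lower by more than 1.3-fold on both arrays.

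*Dusp1* encodes a phosphatase that switches off MAP kinases and so limits the response that induces it. The *Dusp1* signal was 254 and 253 in the wild type samples, and 326 and 329 in the lu/lu samples. The groups did not overlap, again without a share over all genes, and the wild type samples differed by less than the difference between genotypes. The ratio was 0.36 and 0.38, with a mean of 0.37 (SD 0.02, n = 2 arrays), or 1.283-fold and 1.302-fold. The first lies just below the 1.3-fold limit and the second just above it. The adjusted p of *Dusp1* from limma was 0.0678 (unadjusted p = 0.00298).

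*Jun* encodes the partner that Fos proteins need to form AP-1. Its signal was 1413 and 1274 in wild type and 1469 and 1409 in lu/lu. The lu/lu value of array 2 lay just below the wild type value of array 1. These signals were not normalized between arrays, so this small overlap can depend on a shift between them. The mean log2 ratio of *Jun* was 0.10 (SD 0.06, n = 2 arrays), with an adjusted p of 0.425 from limma.

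*Ier2*, which encodes a small nuclear protein, had a signal of 577 and 517 in wild type and 572 and 494 in lu/lu. Both genotypes were lower on array 2, and the groups overlapped. The mean log2 ratio of *Ier2* was -0.04 (SD 0.04, n = 2 arrays), with an adjusted p of 0.759 from limma.

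In limma with Benjamini-Hochberg adjustment over the 10599 genes, 0 of the 4 bright members had an adjusted p under 0.05, a level that 0.0283% of all genes passed as higher and 0.0% as lower. At an unadjusted p under 0.05, *Junb* and *Dusp1* were higher and no member was lower, against 15.7% and 12.1% of all genes. The median log2 ratio of the 4 was 0.24, with 0.21 on array 1 and 0.26 on array 2, and that of all genes that passed was 0.01. Since these 4 were kept for their brightness and the dim members were not, the median does not describe all 8 members, for which it was 0.03.

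**Figure D2:**
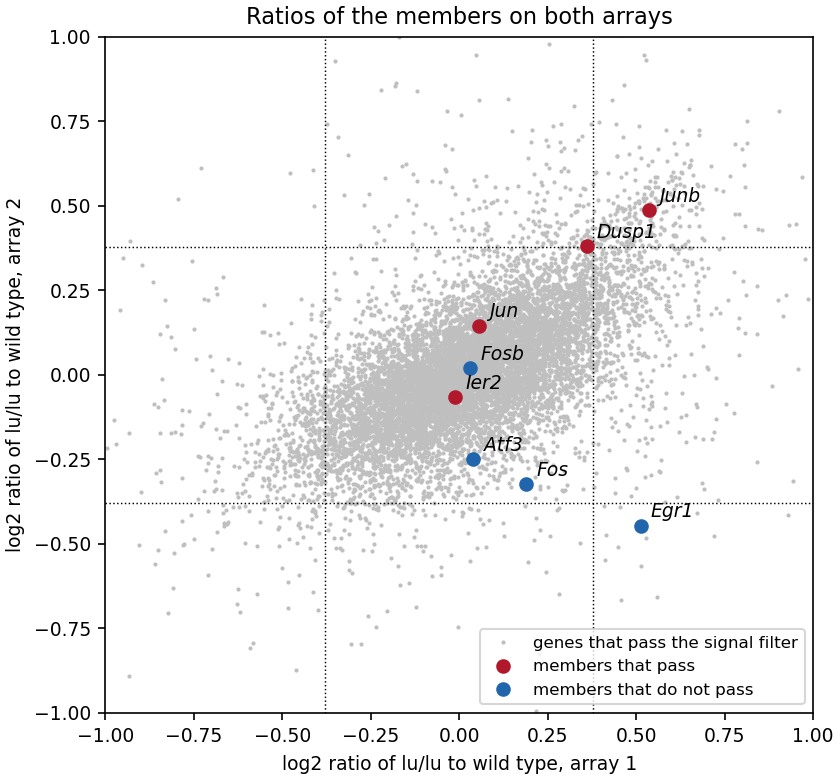
Log2 ratio of lu/lu to wild type on array 1 (x axis) and array 2 (y axis), for genes that passed the signal filter (grey, axes limited to 1 on either side) and for the 8 members. Dotted lines mark 1.3-fold. *Junb* lies beyond both lines, *Dusp1* at them, and *Fos*, *Egr1* and *Atf3* at positive values on array 1 and negative values on array 2.

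The GC content of the probe moved with these ratios. The probe of *Junb* has a GC content of 30.0% and that of *Dusp1* 35%, while those of *Jun* and *Ier2* have 51.7% and 55%. Among the genes that passed, the median log2 ratio was 0.09 for the 130 genes with a probe GC content of 25% to under 35%, and 0.06 for the 5905 genes from 35% to under 45%. It was -0.04 for the 3527 genes from 45% to under 55% and -0.09 for the 930 genes from 55% to under 65%. Both *Junb* and *Dusp1* lay above the median of the genes with a like GC content. Once this trend was subtracted, *Junb* had a ratio of 0.32 and 0.40, which left it short of 1.3-fold on array 1, and the adjusted p from limma was 0.0519. *Dusp1* had 0.21 and 0.32, with an adjusted p of 0.0875 from limma. After the subtraction 1.87% of all genes were higher by more than 1.3-fold on both arrays.

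**Figure D3:**
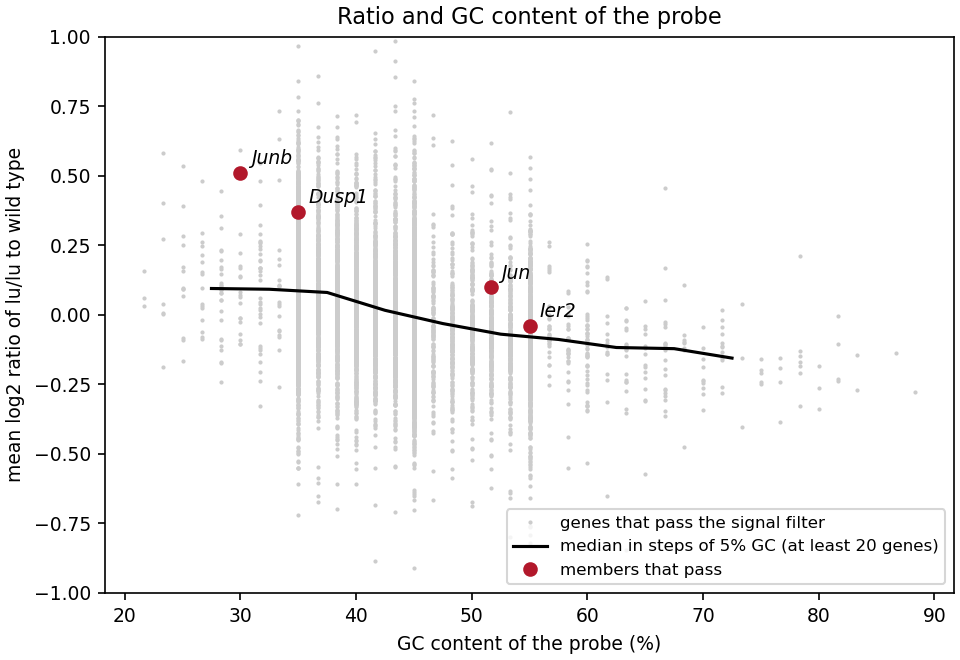
Mean log2 ratio of lu/lu to wild type over both arrays against the GC content of the probe, for genes that passed the signal filter (grey, y axis limited to 1 on either side), with their median (black line) and the members that passed (red). The line falls from left to right, and *Junb* and *Dusp1* lie above it at its left end.

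*Egr1* encodes a zinc finger factor that responds to growth factors and to neuronal activity. The *Egr1* signal was 34.7 and 52.2 in the wild type samples, and 49.6 and 38.3 in the lu/lu samples. Each genotype was the higher one on 1 of the arrays, with ratios of 0.51 and -0.45 and a mean of 0.03 (SD 0.68, n = 2 arrays).

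*Fos* encodes a partner of Jun in AP-1. Its signal was 19.99 and 24.4 in the wild type samples, and 22.8 and 19.5 in the lu/lu samples. The groups overlapped, and the ratio was 0.19 and -0.32. *Atf3*, a stress-induced leucine zipper factor, had 54.6 and 64.9 in wild type and 56.2 and 54.7 in lu/lu. Its ratio was 0.04 and -0.25, so it changed sign in the same order as *Egr1* and *Fos*, although on array 1 it was close to 0.

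*Fosb*, a paralog of *Fos*, did not share this pattern. Its signal was 41.1 and 43.1 in wild type and 42.1 and 43.7 in lu/lu, a range narrower than that of *Egr1*, *Fos* or *Atf3*. The log2 ratio was 0.03 and 0.02. Among the genes well above background, 17.0% had a positive ratio on array 1 and a negative one on array 2, as did 3 of the 8 members, while 33.4% were positive on both arrays, as were 4 members. These patterns of sign were counted after the values of the members were seen. Fitted over the genes well above background, the adjusted p from limma was between 0.650 and 0.956 for the 4 dim members.

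The error of dim spots was read from probes with at least 5 spots on an array. At a mean signal between 30 and 70, the median SD of the log2 ratio among spots of 1 probe was 0.16 on array 1 (2 probes) and 0.18 on array 2 (3 probes). At a signal between 15 and 30 it was 0.33 and 0.22, over 2 probes on each array. Between 200 and 1000 it was 0.07 and 0.06, over 17 and 18 probes. Each of the ratios of *Egr1* was larger than the SD of spots of its brightness. The ratio of *Fos* on array 1 was smaller than that SD, and its ratio on array 2 was larger. These SDs describe spots of 1 hybridization and leave out the spread between embryos.

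Samples of the same genotype carried the same dye, so they could be compared between arrays without a dye effect. The wild type channel of array 1 had the lowest share of gene spots well above background, 62.3% against 74.4% on array 2. In lu/lu it was 73.4% and 74.7%. After the median of the passing genes was subtracted, the log2 value of array 2 over array 1 for *Egr1* was 0.60 in wild type and -0.34 in lu/lu. In size, these exceeded 92.7% and 83.7% of the genes well above background, which include far brighter genes, whose spots scatter less. For *Fos* the values were 0.30 in wild type and -0.19 in lu/lu, and for *Atf3* 0.26 and -0.00. For each of these 3 genes the wild type sample of array 2 had the highest of the 4 signals. With quantile normalization in place of the median, the values of *Egr1* were 0.46 and -0.50 and those of *Fos* 0.09 and -0.45. *Junb* and *Dusp1* changed little between arrays, with -0.04 and 0.01 in wild type and -0.07 and 0.05 in lu/lu. The median size over the 8 members was 0.14 in wild type and 0.08 in lu/lu, and over all genes well above background it was 0.15 and 0.12.

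**Figure D4:**
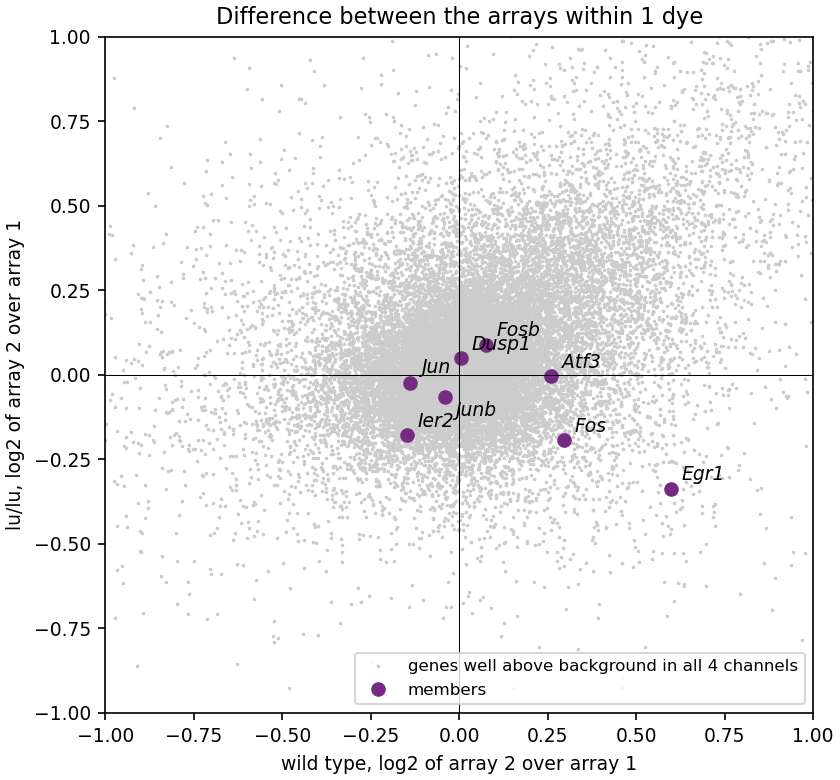
Log2 of array 2 over array 1 within a dye, for wild type (x axis) and lu/lu (y axis), for genes well above background in all 4 channels (grey, axes limited to 1 on either side) and the 8 members. *Egr1* and *Fos* lie at the lower right, higher in wild type and lower in lu/lu on array 2, and *Junb* and *Dusp1* lie near the centre.

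Markers of other cells and heat shock genes differed between the same samples. Of 13 surface ectoderm genes, 9 had a positive ratio on array 1 and a negative one on array 2, the order seen for *Egr1*, *Fos* and *Atf3*. Among all genes well above background, 17.0% had this order. The summed signal of the 13 was 10008 and 13932 in wild type and 14905 and 11224 in lu/lu. Of 11 heat shock genes, 6 had this order too, while 4 were higher and 1 was lower in lu/lu on both arrays. The stress-inducible chaperone gene *Hspa1a*, named after its values were seen, had ratios of 0.36 and -0.48, and *Hspa1b*, named likewise, had 0.48 and -0.20. Both were of a brightness like that of *Egr1*, with signals between 32.2 and 68.1. Other genes of this list did not share that order, such as *Hspb1* with ratios of 0.27 and 0.31 and *Bag3* with -0.08 and -0.59. The 13 genes of red blood cells had a summed signal of 591170 and 239852 in wild type and 314102 and 294968 in lu/lu, so that the wild type sample of array 1 stood apart. Of 15 endothelial genes, 13 were lower in lu/lu on both arrays, with a summed signal of 7216 and 7934 in wild type and 5939 and 5489 in lu/lu. The share of all genes lower on both arrays was not counted, so the counts of lower genes in this and the other lists are a description only. The 14 macrophage genes on the array included 7 lower and 1 higher on both arrays, and 0 with the order of *Egr1*. For the 16 mesenchyme and neural crest genes these counts were 7, 4 and 3. Of 14 neuronal genes, 8 were higher in lu/lu on both arrays and 0 lower on both, where 33.4% of all genes well above background were higher on both. Another 6 of the 14 were lower in lu/lu on array 1 and higher on array 2. The median ratio of the 14 neuronal genes was 0.10 on array 1 and 0.77 on array 2. Their summed signal was 9749 and 8700 in wild type and 10361 and 13941 in lu/lu. Of 12 neuroepithelial genes, 6 were higher on both arrays and 2 lower, with a summed signal of 40708 and 38215 in wild type and 39546 and 48958 in lu/lu. The part of these cells and of handling in the ratios of the members was not tested.

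More than 1 probe was present for *Fosb*, *Junb* and *Ier2*. The other *Fosb* probe and the other *Junb* probes were not well above background in any channel and carry no ratio. The other *Ier2* probe, designed on the clone AK032692 and 1.53 kb from the brightest one, was well above background with signals of 21.0 and 23.4 in wild type and 18.4 and 27.1 in lu/lu. Its ratio was -0.20 and 0.21, so the sign changed between the arrays. The members with 1 probe (*Fos*, *Jun*, *Egr1*, *Atf3* and *Dusp1*) had no other reading.

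Lists of related genes, 124 names in all, were set beside the members. Of these, 122 were on the array and 78 passed the signal filter. Beyond 1.3-fold on both arrays, 5 of the 78 were higher (6.41%, against 2.59% of all genes) and 0 were lower. In limma, 0 had an adjusted p under 0.05, the lowest value being 0.0524. At an unadjusted p under 0.05, 18 of the 78 were higher and 3 lower, against 15.7% and 12.1% of all genes that passed. The median log2 ratio was 0.06, with 0.12 on array 1 and 0.04 on array 2. Once the GC trend was subtracted, 1 of the 78 was beyond 1.3-fold on both arrays, while 3 were higher and 1 lower at an adjusted p under 0.05 in limma. In that fit 2.7% of all genes were higher and 1.57% lower at that level, and 0 of the 4 bright members were.

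**Figure D5:**
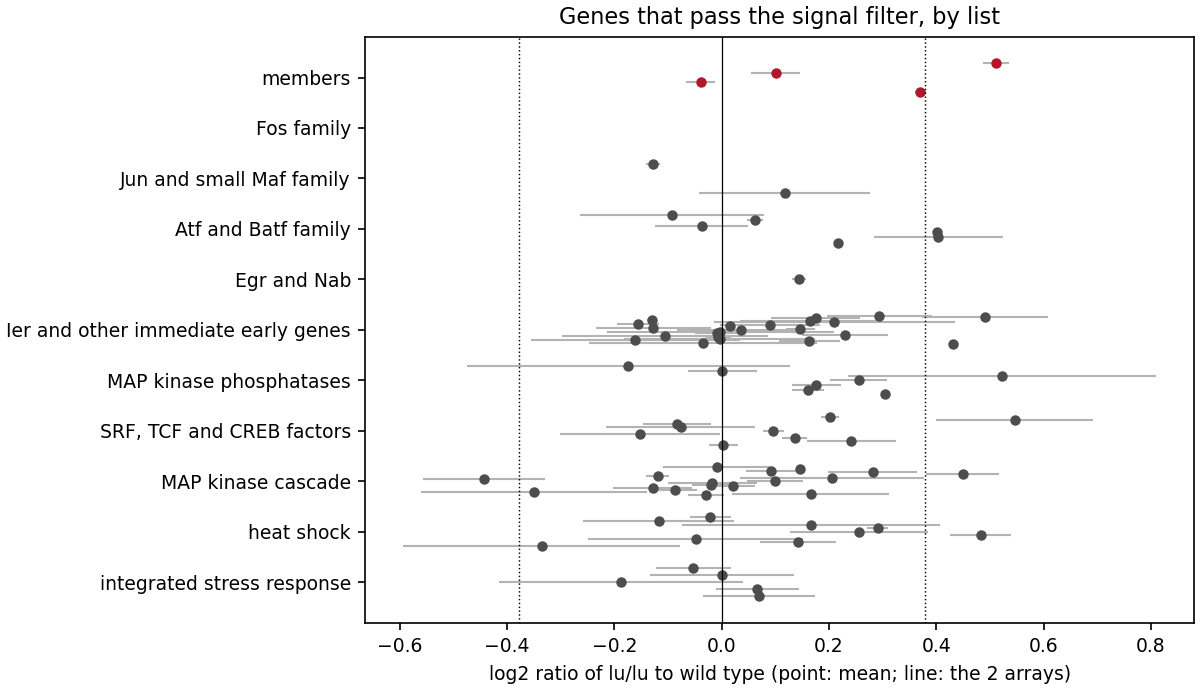
Log2 ratio of lu/lu to wild type for the members and for genes of the related lists that passed the signal filter (point, mean; line, the 2 arrays; dotted lines, 1.3-fold). No gene of the Fos family list passed, and in the other lists most points lie between the dotted lines.

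Among other immediate early genes, 22 of 36 passed the filter, and *Btg1*, an antiproliferative gene, had ratios of 0.43 and 0.44, with a signal of 1470 and 1561 in wild type and 1978 and 2112 in lu/lu (adjusted p = 0.0569 from limma). This was 1 of the 22, and 0 were lower. The median log2 ratio of the 22 was 0.03. In the Egr group, *Egr2*, *Egr3* and *Egr4* were not well above background in every channel. *Nab2*, a corepressor of Egr proteins, passed the filter with a log2 ratio of 0.16 and 0.13. Neither Fos family relative (*Fosl1* and *Fosl2*) passed. Of the Jun and small Maf genes, 2 of 5 passed, and *Mafg* had the larger mean in size, with ratios of -0.11 and -0.14 (adjusted p = 0.310 from limma).

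Leucine zipper relatives of *Atf3* included *Atf4*, the translationally controlled factor of the integrated stress response, with a signal of 11378 and 10054 in wild type and 15014 and 13291 in lu/lu. Its log2 ratio was 0.40 on each array (adjusted p = 0.0588 from limma), and it was the 1 of 6 passing genes of its list beyond 1.3-fold on both arrays. In the integrated stress response list, 0 of 5 passing genes went beyond 1.3-fold on both arrays, and *Ppp1r15a*, a phosphatase subunit that ends the response, had ratios of -0.41 and 0.04.

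Of the relatives of *Dusp1*, 7 of 11 passed and 0 went beyond 1.3-fold on both arrays. *Dusp6*, the ERK-specific phosphatase, had a signal of 2591 and 2923 in wild type and 4542 and 3441 in lu/lu. Both lu/lu values were above both wild type values, with ratios of 0.81 and 0.24 (adjusted p = 0.0987 from limma). The median log2 ratio of the 7 was 0.18.

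Upstream of the members, 1 of 9 passing genes among the SRF, TCF and CREB factors was higher. This was *Mkl2*, a coactivator of serum response factor, with 0.69 and 0.40 on the log2 scale (adjusted p = 0.0573 from limma). In the MAP kinase cascade, 17 of 20 genes on the array passed, and *Mapk8*, which encodes the kinase JNK1 that phosphorylates Jun, had a log2 ratio of 0.52 and 0.38 (adjusted p = 0.0573 from limma). Of the heat shock genes, 9 of 11 passed, and *Hsp90aa1* had 1.45-fold and 1.34-fold, with an adjusted p of 0.0524 from limma. *Hsp90aa1* was the gene beyond 1.3-fold after subtraction of the GC trend, at 1.43-fold and 1.33-fold, with an adjusted p of 0.0386 from limma. In the same fit *Mkl2* had an adjusted p of 0.0445 from limma, with ratios of 0.58 and 0.35. The others called there, named for that call, were *Mapk10*, a kinase of the JNK group (ratios of -0.56 and -0.33, adjusted p = 0.0468 from limma), and *Zfp36l1*, which encodes an mRNA-destabilizing protein (0.46 and 0.31, adjusted p = 0.0498 from limma). The probes of *Btg1*, *Atf4* and *Mapk8* have a GC content of 35%, like that of *Dusp1*, and that of *Mkl2* has 36.7%.

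Promoters are shown for *Junb* and *Dusp1*, whose ratios were highest, and for *Fos*, the best known member. They are the 250 bases before the RefSeq start of each gene (build GRCm38.p6), at chr8:84978749-84978998 on the minus strand, chr17:26508473-26508722 on the minus strand and chr12:85473640-85473889 on the plus strand. Capitals mark TGACG (the core of the cAMP response element, CRE), the full CRE TGACGTCA, which contains it, the TATA sequence TATAAA and CCAAT, on either strand.
Junb: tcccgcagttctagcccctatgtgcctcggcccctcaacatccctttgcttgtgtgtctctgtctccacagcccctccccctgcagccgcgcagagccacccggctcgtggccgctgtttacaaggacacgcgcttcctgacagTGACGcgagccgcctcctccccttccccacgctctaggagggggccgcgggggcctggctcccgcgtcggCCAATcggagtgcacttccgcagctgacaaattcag
Dusp1: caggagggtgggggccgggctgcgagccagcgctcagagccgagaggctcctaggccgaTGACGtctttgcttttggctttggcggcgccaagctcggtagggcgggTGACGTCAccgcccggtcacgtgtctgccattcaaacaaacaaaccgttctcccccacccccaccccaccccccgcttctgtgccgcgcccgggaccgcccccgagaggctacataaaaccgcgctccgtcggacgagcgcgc
Fos: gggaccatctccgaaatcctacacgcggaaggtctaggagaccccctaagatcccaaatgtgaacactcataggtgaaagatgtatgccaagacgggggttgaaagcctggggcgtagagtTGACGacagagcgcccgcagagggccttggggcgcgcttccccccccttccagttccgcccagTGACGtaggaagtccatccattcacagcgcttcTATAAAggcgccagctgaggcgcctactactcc
By symbol, 6 members were found in the promoter table. TGACG was found in 5 of these 6 (*Fos*, *Fosb*, *Junb*, *Atf3* and *Dusp1*), and in 17.8% of the 32851 promoters of the table. The full CRE was found in *Dusp1* alone among the 6, and in 1.55% of all promoters. In *Fos* the TGACG cores begin 129 and 66 bases before the start. The AP-1 site TGANTCA (6.75% of all promoters) and the CArG box of serum response factor (1.47%) were found in 0 of the 6 windows. Bases farther upstream and variants of these patterns were not searched, and *Egr1* and *Ier2* were not in the table. The scan therefore cannot show that a member lacks such sites. TATAAA (12.4% of all promoters) was found in *Fos*, and CCAAT (33.8%) in *Jun* and *Junb*. Members with a TGACG core had high ratios (*Junb* and *Dusp1*) as well as ratios near 0 or of changing sign (*Fosb*, *Atf3* and *Fos*).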

How the data were processed

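Total RNA of wild type (Cy3) and *Plzf* lu/lu (Cy5) brain was amplified, labeled and hybridized together to each of 2 arrays. The authors processed the scans with Feature Extraction 10.7.3.1. The deposited intensity values are background-subtracted and dye-normalized within each array by a LOWESS curve, per the file headers, with a software error for each. They were not normalized between arrays. The authors' files also hold a log10 ratio of Cy5 to Cy3 and spot flags (other values), and the deposited value table of the series holds log2 ratios.

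Outlier spots on either array were left out (137 and 126 gene spots flagged), as were control spots. A probe took the mean log2 value of its spots, and a gene the values of its probe with the highest mean signal. Ratios were tested with limma 3.58.1 in R 4.3.3 (intercept, eBayes, Benjamini-Hochberg), which with 2 arrays leans on all genes for its variance, and p-values measure only the spread between these samples, which the labels call biological replicates. Limma was also run on simulated ratios, with independent noise and shifts larger than the ratio of any member. The simulation held no GC trend, dye effect or differing mix of cells, so it does not test the calls against these. Arrays 1 and 2 are the replicates numbered so in the labels. No array was saturated at a gene spot (0 spots), and the number of arrays limits the precision. The members and lists were chosen with earlier results of these data known. Named genes are the members, *Zbtb16*, related genes beyond 1.3-fold on both arrays and, in a list with none, the passing gene with the largest mean ratio in size. Outside this rule, *Hspa1a*, *Hspa1b*, *Hspb1*, *Bag3*, *Mapk10* and *Zfp36l1* were named after their values were seen. Python 3.11.15, numpy 2.4.6, pandas 2.3.3, matplotlib 3.10.9 and the R package data.table (version 1.17.8) were used. The alternatives were normexp background correction (offset 50) with loess or centring, the deposited log2 table, removal of the trend on probe GC content (lowess, span 0.67, set to leave probes of median GC content as they were), other signal filters, the mean over probes, channels without their pairing, eBayes with trend, a 1.5-fold limit, quantile normalization and each array alone.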

Additional observations from a re-analysis of the deposited data

How the results depend on the processing

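The number of members higher by more than 1.3-fold on both arrays (1) was 3 under normexp with median centring over all spots, which moved the median of the passing genes by 0.55, and 0 with the GC trend removed or at a 1.5-fold limit. With 1 array left out it was between 1 and 2, *Dusp1* being beyond 1.3-fold on array 2. The number lower stayed at 0. Members at adjusted p under 0.05 in limma (0) became 4 under centring over all spots and 1 (*Junb*, adjusted p = 0.00599) under normexp with centring on the passing genes. Those fits called 91.0% and 20.9% of all 10599 genes at that level. The number of members called was 0 when the channels were fitted without the pairing by array (no replicate block) and under the other settings run. The adjusted p of *Junb* lay between 3.1e-11 and 0.525 and that of *Dusp1* between 4.05e-07 and 0.556, lowest under centring over all spots and highest with no filter. The median log2 ratio of the passing members (0.24) was 0.70 under centring over all spots, 0.17 under centring on the passing genes, and 0.0297 over all 8 members, both with the filter of spots well above background and with no filter. With 1 array left out it was between 0.21 and 0.26. Related genes higher (5) were 51 under centring over all spots, 1 with the GC trend removed, 8 with no filter, 2 with the mean over probes and 0 at 1.5-fold, and between 6 and 11 with 1 array left out, the higher count without array 2. Related genes lower (0) were 1 under centring on the passing genes, 1 with spots well above background and 2 with no filter, and between 2 and 3 with 1 array left out. Related genes at adjusted p under 0.05 (0) were 74 higher and 0 lower under centring over all spots, 14 higher and 2 lower under centring on the passing genes, 3 higher and 1 lower with the GC trend removed, and 0 under the other settings run. Of all genes, 91.0%, 20.9% and 4.26% were called in the first of these fits, in that order and in either direction. Mean ratios over both arrays changed sign for *Fosb* (-0.45 under centring on the passing genes and -0.0701 as the mean over probes), *Junb* (-0.11 as the mean over probes, which takes in the 2 probes not above background), *Ier2* (0.45 under centring over all spots and 0.0427 with the GC trend removed), *Egr1* (-0.42 under centring on the passing genes and -0.0684 with the GC trend removed) and *Atf3* (0.11 under centring over all spots). *Egr1*, *Fos* and *Atf3* also differ in sign between the arrays taken alone. In these ratios of single members, the mean over probes took in every probe of the gene. The counts and adjusted p-values under that setting used only probes that passed the filter. Apart from the shift of the median and the added probes and genes, the cause of the changes was not tested. Signal over background limits the 4 dim members, whose signals lay under 70.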
